A study of Mus musculus with 8 samples.

Results

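The response of the *Hsf1* null colon to AOM-DSS was measured by comparing 2 treated *Hsf1* null mice at day 15 with 2 untreated *Hsf1* null mice at day 0. These 4 mice were chosen by the genotype and day in their labels, and all measured genes entered the comparison. They are 4 of the 8 mice whose distal colon was sequenced. The other 4 are WT littermates at the same days, and their values stand beside those of the null mice where the genotypes are set side by side. All 8 were male BALB/c × 129SvEV mice kept free of specific pathogens. The treated mice were injected intraperitoneally with azoxymethane (AOM, 10 mg/kg) at 8 weeks of age and drank 1.5% dextran sulfate sodium (DSS) for 5 days from day 7, and the day 0 mice received neither agent. The titles and the methods of the study place the treated mice at day 15, the protocol in the labels ends with the last day of DSS, and the labels give every mouse an age of 10 weeks. The null allele is carried by every cell of these mice, so that epithelium, stroma and immune cells all lack *Hsf1*.

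AOM is a carcinogen that alkylates DNA in the colon epithelium, and DSS is a polymer that injures the same epithelium and exposes the tissue beneath it to the gut contents. In the weeks after such an injury the colon mucosa loses mature absorptive cells, proliferating crypt cells cover the wound, and leukocytes enter the wall. HSF1 is the transcription factor that drives heat shock protein genes when proteins misfold, and it also acts in fibroblasts and cancer cells on genes outside the heat shock response.

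Between 2675976 and 12440257 reads were counted in the 4 *Hsf1* null mice (7379442 and 7593259 at day 15, and 12440257 and 2675976 at day 0). Levels are given as CPM, counts scaled to a common library size after TMM normalization, for replicate 1 and then replicate 2. The 2 mice of a null group had a Pearson's r of log2 CPM across genes of 0.962 at day 0 and 0.958 at day 15, where genes are not independent replicates. *Hsf1* itself (chromosome 15, 76477422 to 76501913 on GRCm38) stood at 14.0 and 11.9 CPM in the null mice at day 0 and at 13.5 and 9.09 CPM at day 15, below the 36.5 to 50.5 CPM of the WT mice. Its level in null mice did not pass the test between the days (log2 fold change -0.21, adjusted p = 0.664, edgeR). The quasi-likelihood test of edgeR was run over 14371 genes, those whose normalized count averaged above 5. A gene was called when its Benjamini-Hochberg adjusted p was under 0.05 and its log2 fold change was above 1 in size. Since whole tissue was sequenced, fewer cells of a type and less RNA per cell cannot be told apart in any of the values that follow.

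From day 0 to day 15, 761 genes rose in the *Hsf1* null colon (5.3% of the genes tested) and 931 fell (6.48%). List counts without offsets are to be read against these shares. List medians are to be read against 0.05, the median log2 fold change over all genes. The smallest adjusted p was 0.0123 (edgeR). Genes from the antibacterial and wound-associated epithelium, the mitotic apparatus and the major histocompatibility complex were among those that rose, and ion transporters, clock genes and drug-metabolizing enzymes among those that fell. For 34 of the calls, both libraries of one day held 3 or fewer counts. The days did not overlap in any of the 761 and 931 called genes, so a gap between the days adds nothing to a call.

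**Figure D1:**
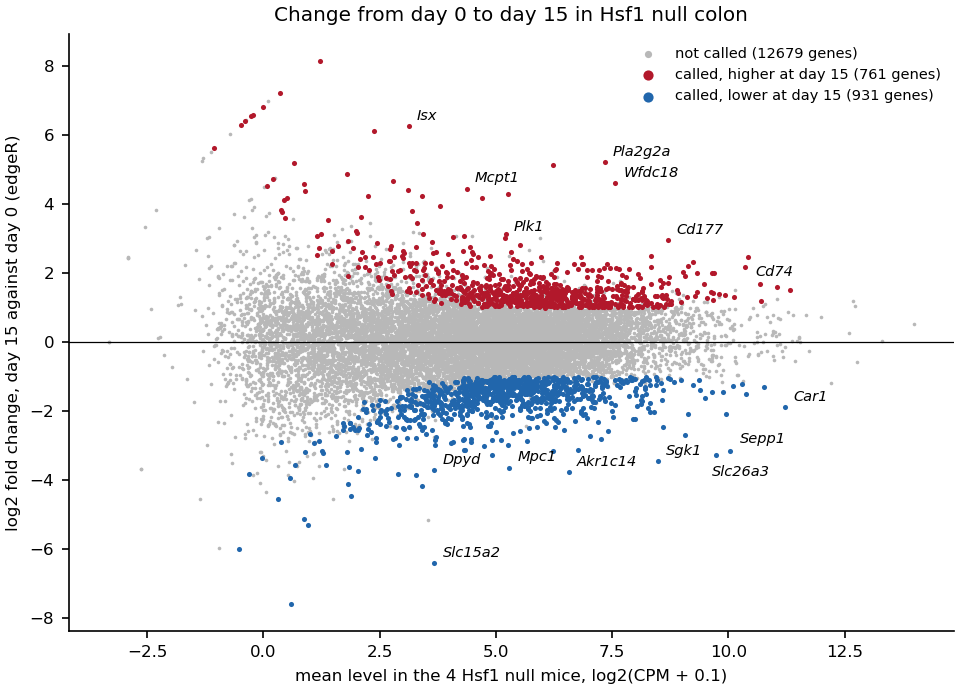
Each point is 1 of 14371 genes, with its mean level in the 4 *Hsf1* null mice on the x axis (log2 of CPM + 0.1) and its log2 fold change from day 0 to day 15 on the y axis. The 761 genes called higher are red and the 931 called lower are blue; *Pla2g2a* at 5.20 and *Slc15a2* at -6.40 are among the named genes farthest from 0.

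The count rested strongly on replicate 2 of null day 0, the smaller of the null libraries. Among the 931 genes called lower, this mouse stood above replicate 1 of day 0 in 862, and among the 761 called higher it stood below it in 657. Over all 14371 genes it stood above replicate 1 in 7035. Without it, edgeR called 0 genes, with 2504 at an unadjusted p under 0.05 and a smallest adjusted p of 0.111, and DESeq2 called 565. Each of the list counts given below also fell to 0 without this mouse in edgeR's test. Of the 1690 called genes that could still be tested without it, 1232 kept a log2 fold change above 1 in size. All 1690 had the same sign, which followed from the lack of overlap between the days and adds no support. Without replicate 1 of null day 15, 487 genes were called, and without replicate 2 of null day 15, 361.

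The fold changes also followed the base composition of the genes. Genes called higher had a median GC content of 54.9% in their longest transcript and genes called lower one of 43%, against 49.9% over all genes. The median log2 fold change was -0.71 in the 20% of genes with the lowest GC content and 0.60 in the 20% with the highest. Across genes, Spearman's rho between GC content and log2 fold change was 0.502 in null mice and 0.294 in WT mice. The libraries that deviated most were replicate 2 of null day 0 and replicate 1 of null day 15, and in opposite directions. With offsets that remove the trend of each library with GC content and transcript length, an alternative chosen after the data were seen, 338 genes were called higher (2.35% of those tested) and 322 lower (2.24%), the shares against which list counts with the offsets are to be read, and 250 and 261 of these were also called without offsets. No called gene changed its sign under the offsets. Where the offsets ended the call of a gene described below this is stated, and a lost call does not show that the fold change went away. The part of base composition in each change was not tested further.

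**Figure D2:**
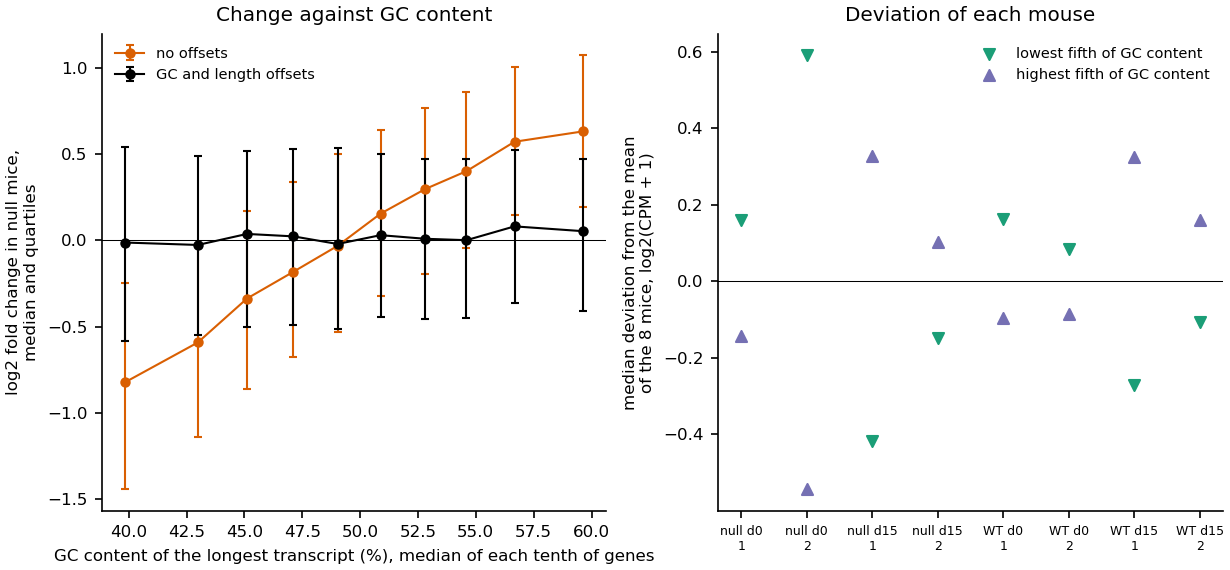
Left, median and quartiles of the log2 fold change in *Hsf1* null mice for 10 equal groups of genes by GC content of the longest transcript (%), without offsets in orange and with GC and length offsets in black. Right, median deviation of the genes in the lowest and highest 20% of GC content from the mean of the 8 mice (log2 of CPM + 1) in each mouse; replicate 2 of null day 0 stands at 0.591 and -0.543, and replicate 1 of null day 15 at -0.417 and 0.329.

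Several of the largest rises were in genes of the surface epithelium and its secretions. *Pla2g2a*, a secreted phospholipase that kills Gram-positive bacteria, was at 7.31 and 10.4 CPM at day 0 and at 150 and 480 CPM at day 15 (log2 fold change 5.20, SE 0.60, adjusted p = 0.0123, edgeR). *Wfdc18*, which encodes a small secreted protein with a whey acidic protein domain, went from 17.9 and 11.1 CPM to 149 and 579 CPM (log2 fold change 4.6, SE 0.59, adjusted p = 0.0123, edgeR). In both genes the 2 mice at day 15 differed by over 3-fold from each other and still lay far above both mice at day 0. *Isx*, a homeobox factor of the intestinal epithelium that represses vitamin A uptake and conversion, had 3 or fewer counts in both mice at day 0 and reached 10.5 and 23.4 CPM at day 15, which was at least 25.6-fold higher. *Sprr1a*, a cornified envelope precursor that injured gut epithelium also makes, was at 0.903 and 0.359 CPM at day 0 and at 9.77 and 22.9 CPM at day 15 (log2 fold change 4.41). *Plet1*, a surface protein of epithelial progenitors, rose from 4.35 and 2.52 CPM to 12.9 and 133 CPM. *Krt36*, a hair-type keratin, rose from 2.14 and 0.719 CPM to 5.74 and 30.6 CPM, and lost its call with the offsets (log2 fold change 2.99 with and 3.44 without them, adjusted p = 0.0513, edgeR). For *Plet1* and *Krt36* most of the rise lay in replicate 2.

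The remaining genes among the 15 largest rises came from several cell types. *Mcpt1* and *Mcpt2* encode the chymases of mucosal mast cells, and their reads may be shared between near-identical family members. *Mcpt1* was at 1.81 and 1.80 CPM at day 0 and at 26.5 and 52.3 CPM at day 15 (log2 fold change 4.44, SE 0.48, adjusted p = 0.0123, edgeR), and *Mcpt2* rose with a log2 fold change of 4.22. *Nos2*, the inducible nitric oxide synthase, rose from 5.26 and 2.52 CPM to 24.0 and 47.9 CPM (log2 fold change 3.06). *Ddah1*, which breaks down the methylarginines that inhibit nitric oxide synthases, rose from 8.38 and 6.47 CPM to 24.5 and 109 CPM. *Clca4b* (log2 fold change 5.11), a member of a family of closely related secreted proteins, and *Myl7* (4.17), the atrial myosin light chain, also rose. *Nlrp1b*, an inflammasome sensor, went from 0.411 and 0.719 CPM to 21.9 and 4.01 CPM, and here replicate 1 was the higher mouse. *Oas2* and *Apol10a* complete the list. In 12 of these 15 genes replicate 2 was the higher mouse at day 15, against 378 of all 761 genes called higher, and 14 of the 15 were also called with the offsets.

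**Figure D3:**
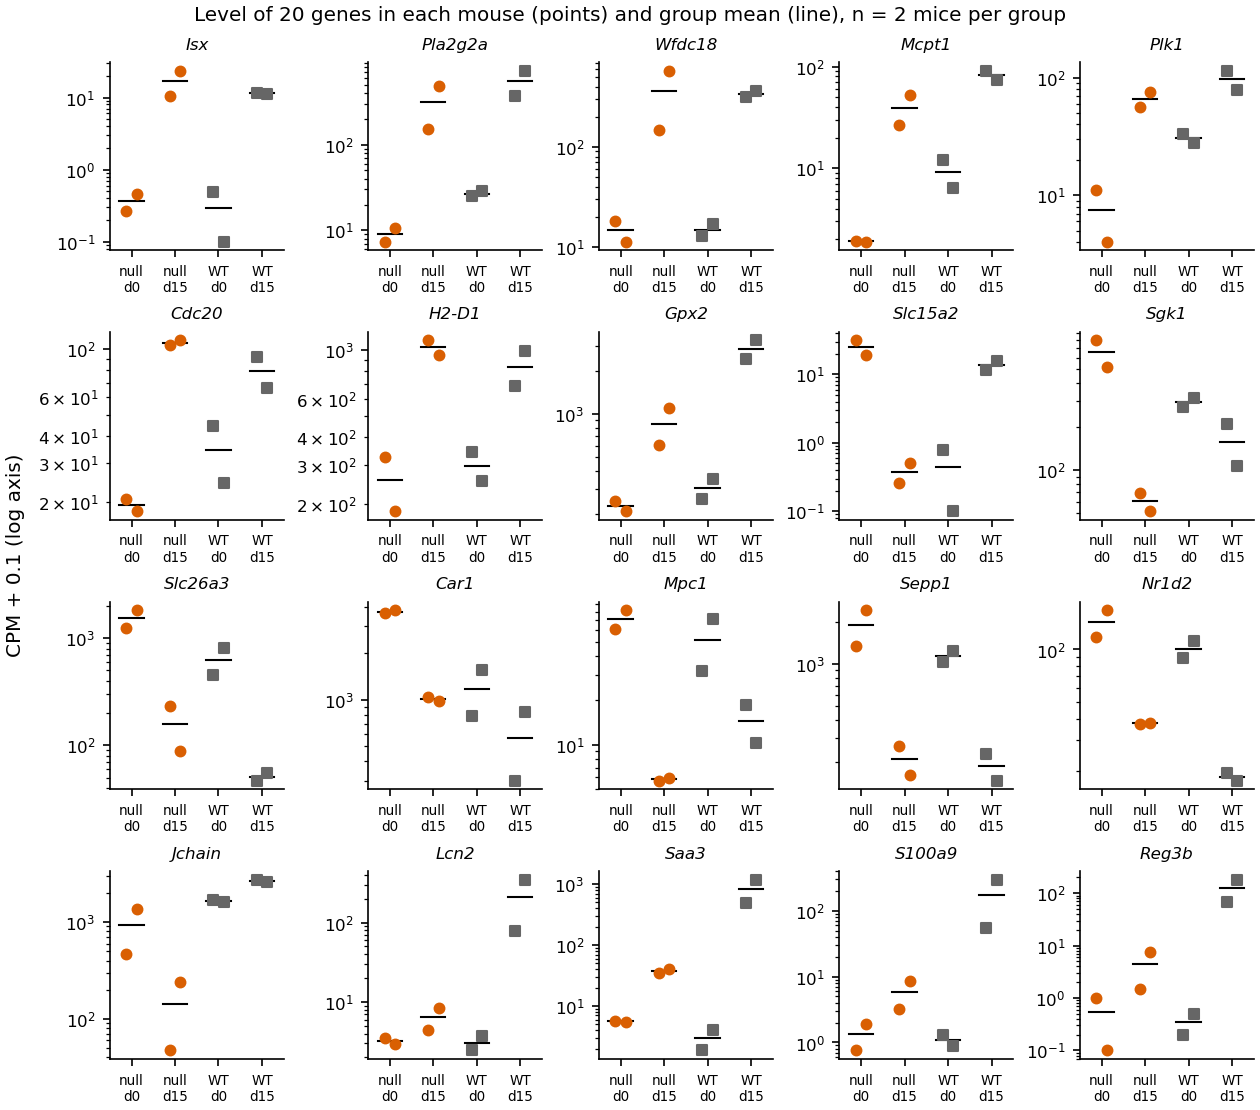
Level of 20 genes in each mouse (CPM + 0.1 on a log axis, circles for *Hsf1* null and squares for WT) with the mean of each group of 2 as a line. *Slc15a2* is high in the null mice at day 0 and in the WT mice at day 15, and *Lcn2*, *S100a9* and *Reg3b* stay below 10 CPM in every null mouse.

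The largest falls were in transport and metabolic genes and in a few genes of the stroma. *Sgk1*, the kinase through which aldosterone and other signals keep the epithelial sodium channel at the cell surface, was at 795 and 519 CPM at day 0 and at 69.2 and 51.6 CPM at day 15 (log2 fold change -3.44, SE 0.39, adjusted p = 0.0123, edgeR). *Mpc1*, a subunit of the mitochondrial pyruvate carrier, went from 61.2 and 82.3 CPM to 5.58 and 5.88 CPM (log2 fold change -3.63, SE 0.47, adjusted p = 0.0123, edgeR). *Sepp1*, the plasma selenium carrier, fell from 1346 and 2422 CPM to 263 and 162 CPM (log2 fold change -3.15). *Dpyd*, the first enzyme of pyrimidine breakdown, fell from 19.8 and 27.3 CPM to 1.55 and 2.01 CPM (log2 fold change -3.70). For these 4 genes both mice at day 15 lay far below both mice at day 0. *Akr1c14*, a hydroxysteroid dehydrogenase, stood at 97.1 and 255 CPM at day 0 and at 10.7 and 15 CPM at day 15 (log2 fold change -3.76). *Lypla1*, an acyl-protein thioesterase, was also over 2-fold higher in replicate 2 than in replicate 1 at day 0, with 112 and 277 CPM, and fell to 22.8 and 21.8 CPM. *Fmo2* (log2 fold change -3.27), a flavin monooxygenase, and *Idi1* (-3.12), an enzyme of isoprenoid synthesis, were no longer called with the offsets (log2 fold changes -2.68 and -2.50, adjusted p = 0.108 and 0.0513, edgeR). *Tspan12*, *Cped1*, *Chrdl1*, *Edil3* and *Ogn* fell as well (log2 fold changes -3.12, -4.17, -3.85, -3.81 and -3.16). In 13 of the 15 largest falls replicate 2 was the higher mouse at day 0, and 13 of the 15 were called with the offsets. One of these is *Sepp1*, which had no GC content or length in the annotation and so received no correction.

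A further 10 genes were named for having the lowest p in either direction and not for their size. Among those that rose, *Cd177*, a surface protein of neutrophils that colon epithelium also makes, went from 102 and 89.1 CPM to 627 and 859 CPM (log2 fold change 2.95). *Rpia*, an isomerase of the pentose phosphate pathway, went from 42.8 and 37.7 CPM to 157 and 233 CPM (2.27), and *Ffar2*, a receptor for short-chain fatty acids, from 6.41 and 6.83 CPM to 36.0 and 41.5 CPM (2.55). *Ncapd2*, a condensin subunit, *Pttg1*, the securin that holds back chromatid separation, and *Ap1s1*, a clathrin adaptor subunit, rose by 2.27, 1.96 and 2.08 on the log2 scale. Among those that fell, *Oat*, the ornithine aminotransferase, went from 188 and 223 CPM to 50.9 and 38.9 CPM. *Sar1b*, a small GTPase that exports lipoproteins from the endoplasmic reticulum, *Aldh6a1*, which breaks down valine, and *Cops2*, a COP9 signalosome subunit, fell too (log2 fold changes -2.47, -2.34 and -2.19). Of the 40 genes named by size or by p, 26 were called in each of the 17 other fits that kept replicate 2 of null day 0 at the same thresholds, and none was called at an adjusted p under 0.005. All 40 had the same sign without that mouse, which followed from the lack of overlap between the days and adds no support.

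Genes of absorptive transport were often lowered. Mature colonocytes take up chloride, sodium, water and short-chain fatty acids through a set of channels, exchangers and carbonic anhydrases. Of 31 tested members 10 fell and 1 rose, against 6.48% and 5.3% of all genes, and the list's median log2 fold change was -0.46 against 0.05 over all genes. That median was -1.21 without replicate 1 of null day 15 and -0.05 without replicate 2 of null day 15. *Slc26a3*, the chloride-bicarbonate exchanger of the surface epithelium, went from 1253 and 1829 CPM to 231 and 88.4 CPM (log2 fold change -3.27, SE 0.49, adjusted p = 0.0126, edgeR). *Car1*, a cytosolic carbonic anhydrase, went from 3644 and 3808 CPM to 1046 and 978 CPM (log2 fold change -1.88, adjusted p = 0.0377, edgeR). *Slc26a3* was lower in replicate 2 than in replicate 1 at day 15 by over 2-fold. Of the 3 subunits of the epithelial sodium channel in the list 1 was called. *Scnn1g*, the gamma subunit, fell from 66.3 and 28.4 CPM to 9.31 and 2.81 CPM, and *Nr3c2*, the mineralocorticoid receptor, from 96.9 and 163 CPM to 40.2 and 14.3 CPM. *Scnn1a* and *Scnn1b*, the alpha and beta subunits, had log2 fold changes of 0.28 and -0.42 and were not called. *Slc4a4* (log2 fold change -2.56), a bicarbonate cotransporter, *Car2* (-1.38) and *Atp1b1* (-1.29), the beta subunit of the sodium pump, also fell.

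The short-chain fatty acid carriers of this list were called on less secure values. *Slc5a8*, the sodium-coupled carrier of butyrate, went from 261 and 482 CPM to 172 and 104 CPM (log2 fold change -1.43, adjusted p = 0.0329, edgeR). *Slc16a1*, the proton-coupled carrier, had a log2 fold change of -1.10. With the offsets these values were -0.52 and -0.50 and neither was called. *Guca2b*, which encodes uroguanylin, a peptide that stimulates chloride secretion, was the member that rose, from 38.8 and 27.0 CPM to 60.6 and 105 CPM. *Slc37a2*, a sugar-phosphate exchanger, was not called and its mice did not move together (138 and 108 CPM at day 0, 417 and 126 CPM at day 15). Without replicate 1 of null day 0, replicate 1 of null day 15 or replicate 2 of null day 15, 5, 5 and 4 members of the list were lowered. With the offsets *Slc26a3*, *Scnn1g*, *Nr3c2* and *Sgk1* were lowered, and *Car1*, *Car2*, *Slc4a4*, *Atp1b1* and *Guca2b* were not called (log2 fold changes -1.61, -1.47, -2.08, -1.38 and 0.83). One other member was called higher with the offsets.

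Among the tight junction genes 3 of 19 fell (15.8%, against 6.48% of all genes) and 1 rose (5.26%, against 5.3%). *Cldn8*, a claudin of the colon surface, went from 74.3 and 177 CPM to 32.4 and 22.2 CPM, *Cldn1* from 3.12 and 6.83 CPM to 0.310 and 1.07 CPM, and *Ocln* from 115 and 118 CPM to 61.0 and 48.8 CPM. *Tjp3*, a scaffold protein of the junction, rose from 221 and 150 CPM to 633 and 491 CPM. With the offsets 0 of the 19 were called in either direction. Without replicate 1 of null day 0, 3 rose and 3 fell, without replicate 1 of null day 15, 0 rose and 1 fell, and without replicate 2 of null day 15, 1 rose and 0 fell.

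Goblet cell genes differed little as a group. Of 23 members, which encode the mucus proteins and the factors that process them, 1 rose and 0 fell, and the median log2 fold change was 0.07. *Foxa3*, a transcription factor of goblet cells, was the one that rose, from 35.8 and 32.7 CPM to 103 and 91.3 CPM, and it lost its call with the offsets (adjusted p = 0.0533, edgeR). *Muc2*, the main gel-forming mucin of the colon, was not called, with a log2 fold change of 1.04 (adjusted p = 0.143, edgeR). The sum of the 23 genes was 33404 and 28307 CPM at day 0 and 47673 and 26437 CPM at day 15. Among 22 enteroendocrine genes 0 were called.

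Among antimicrobial effectors more genes were called higher than lower. Of 18 antimicrobial effectors 4 rose (22.2%, against 5.3% of all genes) and 1 fell (5.56%, against 6.48%), and 17 had a positive log2 fold change (median 1.21). Besides *Pla2g2a* and *Nos2*, the genes that rose were *Duoxa2*, the maturation factor of the dual oxidase that makes hydrogen peroxide at the epithelial surface, and *Pglyrp1*, a peptidoglycan recognition protein. *Duoxa2* went from 18.2 and 22.3 CPM to 65.9 and 77.7 CPM, and *Pglyrp1* from 547 and 293 CPM to 933 and 1378 CPM. *Mptx1*, a mucosal pentraxin with a close paralog, fell from 716 and 596 CPM to 194 and 46.4 CPM (log2 fold change -2.45, adjusted p = 0.0452, edgeR). Reads of *Mptx1* may be shared with that paralog. With the offsets *Pglyrp1* and *Mptx1* were not called (log2 fold changes 1.04 and -2.03), and 1 other member was called higher.

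Of 19 genes of regenerating epithelium, 3 rose (15.8%, against 5.3% of all genes) and 1 fell (5.26%, against 6.48%). *Ly6a*, the Sca-1 antigen that marks repairing colon epithelium and is also made by leukocytes and endothelium, went from 242 and 401 CPM to 1107 and 1462 CPM (log2 fold change 2.0, adjusted p = 0.0191, edgeR). *Krt7*, a keratin of simple ducts, and *Sprr1a* were the others that rose. Without replicate 2 of null day 15, 1 gene of this list rose and 2 fell. *F3*, tissue factor, fell from 84.3 and 85.2 CPM to 21.4 and 29.4 CPM. Of 20 stem cell and Wnt genes *Lgr4*, a receptor for R-spondins, fell, from 254 and 296 CPM to 135 and 95.5 CPM, and lost its call with the offsets (adjusted p = 0.0966, edgeR). *Lgr5*, the marker of cycling crypt stem cells, was at 7.39 and 6.11 CPM at day 0 and at 1.24 and 2.54 CPM at day 15 and was not called (log2 fold change -1.83, adjusted p = 0.0593, edgeR). Of 11 EGF receptor ligands and receptors 0 were called.

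Some markers of stratified squamous epithelium, which lines the anal canal next to the distal colon, were called higher at day 15. Of 24 listed markers 10 could be tested, and 5 of them rose (50%, against 5.3% of all genes). They were *Krt13*, *Krt14*, *Sprr1a*, *Sprr2a3* and *Ly6d*. The minimum level was an average over all mice. A marker near 0 at day 0 could thus pass it only through other mice, which tilts the share of this list toward rises. *Krt13* was at 0.0821 and 0 CPM at day 0 and at 1.40 and 4.41 CPM at day 15, and *Krt14* at 0.903 and 0 CPM and then at 2.33 and 13.5 CPM. *Sprr2a3*, which has near-identical copies and is abundant in the colon, made up most of the sum of the list. Without *Sprr2a3* and *Pkp1*, the other 8 genes summed to 22.6 and 18.3 CPM at day 0 and to 52.3 and 91.6 CPM at day 15. Whether a few squamous cells entered the day 15 samples, and their part in the keratin and *Sprr* values above, was not tested. With the offsets *Krt13* (log2 fold change 4.85), *Krt14* (3.16) and *Ly6d* were not called, and without replicate 1 of null day 0 or replicate 2 of null day 15 the list had 2 and 1 genes that rose. The genes that place tissue along the colon were mostly not called. Of 10, *Hoxa13* fell, from 20.4 and 30.5 CPM to 5.89 and 7.22 CPM. The 10 genes had a median log2 fold change of -0.88 and summed to 915 and 995 CPM at day 0 and to 638 and 332 CPM at day 15. Whether the region sampled differed between the days was not tested.

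Genes of cell division rose in a large share. DNA replication genes are switched on before S phase through E2F sites, and mitosis genes later in the cycle by factors that bind 2 short elements near the start site, the cell cycle genes homology region (CHR) and the CCAAT box. Of 40 tested cell cycle and DNA replication genes 17 rose (42.5%, against 5.3% of all genes) and 0 fell (against 6.48%), and 35 had a positive log2 fold change (median 1.15). *Plk1*, a mitotic kinase, was at 10.9 and 3.95 CPM at day 0 and at 56.5 and 75.7 CPM at day 15 (log2 fold change 3.02, SE 0.42, adjusted p = 0.0123, edgeR). *Cdc20*, the activator of the anaphase promoting complex, went from 20.4 and 18 CPM to 104 and 109 CPM (log2 fold change 2.46, SE 0.33, adjusted p = 0.0123, edgeR). *Cdk1*, the mitotic cyclin-dependent kinase, went from 25.8 and 23 CPM to 67.3 and 116 CPM (log2 fold change 1.91), and *Ccnb2*, one of its cyclins, from 48.3 and 39.9 CPM to 115 and 121 CPM (1.42). All 4 genes had gaps between the days, as every called gene did. *Birc5* (2.35), *Rrm2* (2.23), *Tpx2* (2.01), *Cenpa* (1.87), *Mcm5* (1.71), *Aurka* (1.60) and *Mcm7* (1.48) were among the others that rose. *Rrm2*, a subunit of ribonucleotide reductase, rested on replicate 2, with 13.1 and 14.7 CPM at day 0 and 23.3 and 107 CPM at day 15. The count of 17 was 8 without replicate 1 of null day 0 and 4 without replicate 2 of null day 15. With the offsets 13 rose, and *Mcm5*, *Mcm7*, *Foxm1* and *Ube2c* were not called.

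The promoters of 3 of these genes show the elements. They are the 250 bases before the start of transcription in RefSeq on GRCm38.p6, with each CHR (TTTGAA) and each CCAAT box (CCAAT) in capitals on either strand, so that the reverse complement of the box reads ATTGG. Those of *Cdc20* (chromosome 4, 118437344 to 118437593, minus strand), *Ccnb2* (chromosome 9, 70421555 to 70421804, minus strand) and *Cdk1* (chromosome 10, 69352913 to 69353162, minus strand) read as follows.
Cdc20: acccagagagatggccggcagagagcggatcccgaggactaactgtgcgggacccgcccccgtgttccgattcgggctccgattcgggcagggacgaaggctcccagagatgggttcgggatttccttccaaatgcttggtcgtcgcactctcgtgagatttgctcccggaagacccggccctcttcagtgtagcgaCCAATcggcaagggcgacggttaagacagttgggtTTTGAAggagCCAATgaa
Ccnb2: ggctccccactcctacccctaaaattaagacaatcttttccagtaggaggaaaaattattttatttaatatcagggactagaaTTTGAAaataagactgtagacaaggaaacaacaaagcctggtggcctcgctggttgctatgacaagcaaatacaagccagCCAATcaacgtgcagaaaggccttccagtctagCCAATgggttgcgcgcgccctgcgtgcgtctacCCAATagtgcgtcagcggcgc
Cdk1: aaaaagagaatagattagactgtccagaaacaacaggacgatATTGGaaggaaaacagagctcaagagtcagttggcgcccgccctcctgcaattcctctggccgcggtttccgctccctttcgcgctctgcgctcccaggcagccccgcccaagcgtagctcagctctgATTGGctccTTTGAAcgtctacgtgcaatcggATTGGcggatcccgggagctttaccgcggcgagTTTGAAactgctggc
Of the 27025 genes with a promoter in the same table, 18.3% had a CHR and 37.5% a CCAAT box in such a window. Of the 13 called members with a promoter there, 5 (38.5%) had a CHR and 12 (92.3%) a CCAAT box. Of the 17 members with a promoter there that were not called, 4 (23.5%) and 10 (58.8%) had them. A match is a description of these letters and not of a bound site.

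Without offsets, antigen presentation genes held the highest share of calls among the lists with 15 or more tested genes, at 43.5% against 42.5% for the cell cycle list. With the offsets 3 of 23 antigen presentation genes and 13 of 40 cell cycle genes were called. MHC class I molecules show peptides cut by the immunoproteasome and carried by the TAP transporter, and class II molecules show peptides on professional antigen-presenting cells and, after interferon gamma, on epithelium. Of 23 tested members 10 rose (43.5%, against 5.3% of all genes) and 0 fell (against 6.48%), 21 had a positive log2 fold change, and the median was 1.57. In class I, *H2-D1* went from 326 and 185 CPM to 1102 and 948 CPM (log2 fold change 2.0, SE 0.35, adjusted p = 0.0152, edgeR) and *H2-K1* from 217 and 172 CPM to 779 and 493 CPM (1.71). *Tap1*, *Tap2*, *Tapbp* and *Psmb9*, which supply these molecules with peptide, rose by 2.29, 2.13, 1.67 and 1.83 on the log2 scale. In class II, *Cd74*, the invariant chain, went from 597 and 368 CPM to 2829 and 1490 CPM (log2 fold change 2.16, adjusted p = 0.0413, edgeR), and *H2-Ab1*, *H2-Aa* and *H2-DMb1* rose as well. Replicate 2 of day 0 was the lower mouse and replicate 1 of day 15 the higher one for all 10 of these genes. The H2 genes are polymorphic and close to one another in sequence, so that reads may be split between them. Without replicate 1 of null day 0, replicate 1 of null day 15 or replicate 2 of null day 15, 3, 1 and 4 of the 23 rose. With the offsets *H2-D1*, *H2-Aa* and *Tap2* were the 3 members called, and the median was 1.24.

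Interferon-induced genes were mostly above 0 and mostly not called. Of 41 members 35 had a positive log2 fold change (median 1.04), and 1, *Oas2*, rose (2.44%, against 5.3% of all genes). The count depended on the mice kept, being 11 without replicate 1 and 10 without replicate 2 of WT day 15 (median 1.04 in both), 10 with the null mice alone in the fit, 4 by DESeq2, and 0 without any 1 of the 4 null mice. It was *Oas2*, a sensor of double-stranded RNA with close paralogs, at 1.97 and 1.08 CPM at day 0 and at 31.5 and 20.7 CPM at day 15 (log2 fold change 3.94, SE 0.88, adjusted p = 0.0246, edgeR). *Oas3* (log2 fold change 3.08, adjusted p = 0.0724) and *Oasl2* (2.35, adjusted p = 0.0680) did not pass edgeR's test. *Irf1*, the factor that carries the interferon gamma signal to MHC genes, was at 57.9 and 70.1 CPM at day 0 and at 217 and 142 CPM at day 15 and was not called (log2 fold change 1.49, adjusted p = 0.0778, edgeR).

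Leukocyte markers changed in few genes. Of 18 neutrophil genes 2 rose, *Cd177* and *Retnlg*, and *Retnlg*, a secreted protein of the resistin family, reached no more than 1.55 and 2.81 CPM and lost its call with the offsets. Without *Cd177* the other 17 summed to 9.20 and 10.1 CPM at day 0 and to 10.4 and 42.4 CPM at day 15. The list's median was 1.30 and turned to -0.17 without replicate 2 of null day 15. Of 18 T and NK cell genes *Cd3e*, a chain of the T cell receptor complex, rose, from 3.28 and 1.08 CPM to 13.8 and 20.1 CPM. Of the list 3 rose without replicate 1 of null day 0 or without either mouse of WT day 0, without replicate 2 of null day 15, 0 rose, and DESeq2 called 5 higher. The 18 genes summed to 64.2 and 41.7 CPM at day 0 and to 121 and 152 CPM at day 15. Of 19 B and plasma cell genes *Jchain*, the joining chain of secreted IgA, fell, from 471 and 1378 CPM to 46.8 and 237 CPM (log2 fold change -2.70, adjusted p = 0.0365, edgeR), and lost its call with the offsets (adjusted p = 0.0706, edgeR). Its mice differed by over 2-fold at each day. The list's median was 0.85, 2 members rose without replicate 1 of null day 0, and 3 with the null mice alone in the fit. Of 26 monocyte and macrophage genes *Plac8* fell, from 1363 and 1854 CPM to 342 and 414 CPM (log2 fold change -2.09, SE 0.32, adjusted p = 0.0129, edgeR), and colon epithelium makes this gene too. Of this list 3 fell without replicate 1 of null day 0, and DESeq2 called 4 higher and 2 lower. Its median was 0.40 and turned to -0.63 without replicate 2 of null day 15, and its genes summed to 2019 and 2664 CPM at day 0 and to 881 and 1652 CPM at day 15. *C1qc*, a complement chain of tissue macrophages, was not called, with a log2 fold change of 1.19 (adjusted p = 0.0545, edgeR).

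Few inflammatory mediators were called. Of 38 cytokine and chemokine genes *Tnf* rose, from 4.27 and 0.719 CPM to 10.9 and 14.6 CPM, and lost its call with the offsets (adjusted p = 0.0619, edgeR). Of the same list, DESeq2 called 5 higher, and edgeR called between 0 and 4 when 1 mouse was left out, with 4 without replicate 1 of WT day 15 and 0 without replicate 2 of null day 15. *Cxcl5*, a neutrophil chemoattractant of the epithelium, was at 0.657 and 0.359 CPM at day 0 and at 1.24 and 10.2 CPM at day 15 and was not called. Of 24 acute-phase and NF-kappaB feedback genes 4 rose, *Saa3*, *Socs3*, *Lrg1* and *Bcl3*, and with the offsets *Saa3* was the one still called. Without replicate 1 or replicate 2 of null day 15, 2 and 1 of them rose. *Saa3*, a serum amyloid A gene, went from 5.67 and 5.39 CPM to 35.2 and 40.4 CPM (log2 fold change 2.76, SE 0.46, adjusted p = 0.0140, edgeR). *Socs3*, the feedback inhibitor of cytokine receptors, went from 3.37 and 6.11 CPM to 11.5 and 12.7 CPM (1.47). *Lcn2*, an iron-scavenging protein of neutrophils and injured epithelium, was at 3.45 and 2.87 CPM at day 0 and at 4.34 and 8.29 CPM at day 15 and was not called (log2 fold change 0.96, adjusted p = 0.365, edgeR). *Reg3b*, an antibacterial lectin, and *S100a9*, a chain of calprotectin, reached 1.40 and 7.36 CPM and 3.10 and 8.56 CPM and were not called either.

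The WT mice, which share no sample with the null comparison, give these levels a second set of values. In WT mice 499 genes rose (3.47%) and 613 fell (4.27%). Genes called in null mice mostly had the same sign in WT mice (1621 of 1692, or 95.8%, against 74.4% of all tested genes), and 458 were called in both genotypes in the same direction (27.2% of the null calls and 41.5% of the WT calls). The median log2 fold change of the genes that rose in null mice was 1.41 in null and 0.92 in WT mice, and that of the genes that fell was -1.53 and -0.87. Among genes chosen by their call in WT mice the larger medians were those of WT mice, with 1.8 in WT and 1.31 in null mice for rises and -1.72 and -0.957 for falls, so these medians follow the genotype in which the genes were chosen. Of the 15 largest rises and falls in null mice, 11 and 9 were called in WT mice in the same direction. *Saa3* was at 1.76 and 3.97 CPM in WT mice at day 0 and at 490 and 1185 CPM at day 15, and *Lcn2* went from 2.35 and 3.57 CPM to 78.6 and 347 CPM. The difference between the genotypes in the change of *Saa3* was -5.66 on the log2 scale (null minus WT, adjusted p = 0.0744, edgeR) and that of *Lcn2* -5.31 (adjusted p = 0.233, edgeR). Neither passed the threshold, with unadjusted p of 1.04e-05 and 0.000327. For *Sgk1* the log2 fold change was -3.44 in null mice and -0.90 in WT mice, and the difference had an adjusted p of 0.259 (edgeR).

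**Figure D4:**
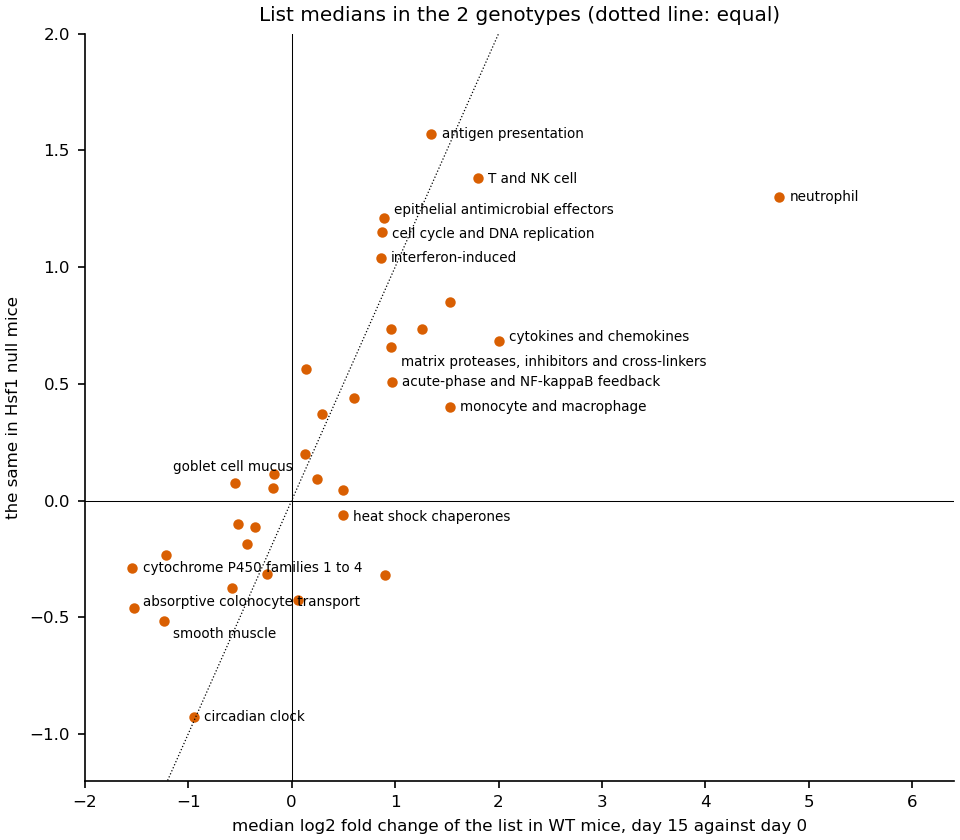
Median log2 fold change from day 0 to day 15 of each list with 15 or more tested genes, in WT mice on the x axis and in *Hsf1* null mice on the y axis, with a dotted line where both are equal. The neutrophil list lies at 4.71 in WT and 1.30 in null mice, and the circadian clock list at -0.95 and -0.93.

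One gene passed the test of the difference between genotypes (0.00696% of those tested), and it moved in opposite directions. The call was lost without either mouse of null day 0 or without replicate 1 of null day 15, when 0 genes passed. *Slc15a2* (chromosome 16, 36750177 to 36784962 on GRCm38), a proton-coupled carrier of small peptides, was at 31.2 and 19.0 CPM in null mice at day 0, from 380 and 53 counts, and at 0.155 and 0.401 CPM at day 15, from 1 and 3 counts. It was at least 58.0-fold lower at day 15. In WT mice its level rose instead, from 0.686 and 0 CPM to 11.4 and 15.7 CPM. The null mice at day 0 and the WT mice at day 15 were thus high, and the other 4 mice were below 1 CPM. The log2 fold change was -6.40 in null mice (SE 0.71, adjusted p = 0.0123) and 4.69 in WT mice, and their difference was -11.1 (SE 0.98, adjusted p = 0.00761, edgeR's quasi-likelihood test). At an unadjusted p under 0.05 the interaction had 1239 genes, and DESeq2 called 120. *Gstm6*, a glutathione transferase, and *Krtap3-1*, a hair keratin-associated protein named here after its values were seen, were the other genes called in both genotypes in opposite directions. *Gstm6* rose from 20.5 and 14.4 CPM to 45.6 and 34.2 CPM in null mice and fell from 20.3 and 26.6 CPM to 9.39 and 7.71 CPM in WT mice, and *Krtap3-1* stood below 10 CPM in every mouse. In null mice both lost their calls with the offsets. *Apol10a* (chromosome 15, 77477047 to 77491069), on the chromosome that also carries *Hsf1*, rose in null mice from 1.07 and 1.44 CPM to 23.6 and 9.90 CPM while the 4 WT mice had 0.294, 0, 0 and 0 CPM.

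Matrix genes were called in both directions, at shares near those of all genes for the glycoproteins. The matrix is laid down by fibroblasts and smooth muscle and, for basement membrane, also by epithelium. Of 26 collagen chains 3 rose (11.5%, against 5.3% of all genes), *Col6a4*, *Col16a1* and *Col27a1*, and 0 fell (median log2 fold change 0.73). That median was 1.11 without replicate 1 of null day 15 and turned to -0.05 without replicate 2 of null day 15. *Col6a4* went from 7.64 and 8.62 CPM to 18.9 and 53.8 CPM. The count of collagen genes that rose was 8 without replicate 1 of null day 15, and 0 without replicate 1 of null day 0, without replicate 2 of null day 15 or with the offsets. Of 40 matrix glycoproteins, laminins and proteoglycans 2 rose (5%, against 5.3% of all genes) and 4 fell (10%, against 6.48%). *Postn*, periostin, went from 134 and 314 CPM to 15.5 and 52.6 CPM (log2 fold change -2.71, adjusted p = 0.0197, edgeR), and *Dcn*, decorin, from 190 and 413 CPM to 27.6 and 105 CPM (-2.18, adjusted p = 0.0445, edgeR). *Ogn*, osteoglycin, went from 76.2 and 195 CPM to 6.36 and 23.4 CPM, and *Efemp1*, a fibulin, fell by 1.98 on the log2 scale. In these 4 genes replicate 2 was the higher mouse at both days by over 2-fold. *Lamb3*, a chain of the epithelial laminin-332, rose from 190 and 99.9 CPM to 467 and 391 CPM, and *Emilin1*, an elastic fibre protein, by 1.22. With the offsets *Postn*, *Dcn*, *Efemp1* and *Emilin1* lost their calls (log2 fold changes -1.60, -1.2, -1.75 and 0.70). Without replicate 1 of null day 15, 1 gene of this list rose and 0 fell, and without replicate 2 of null day 15, 0 rose and 5 fell. *Lama1* and *Col18a1*, which encode basement membrane chains, were at 3.26 and 8.29 CPM and at 32.7 and 101 CPM at day 15 and were not called in null mice.

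The other stromal lists held few calls. Of 33 matrix proteases, inhibitors and cross-linkers *Plod3*, a lysyl hydroxylase, rose (log2 fold change 1.14), and with the offsets it was not called (0.61). Of 19 fibroblast markers 0 were called, and they summed to 445 and 654 CPM at day 0 and to 245 and 573 CPM at day 15. Of 27 TGF-beta and BMP genes 1 rose (3.7%, against 5.3% of all genes) and 3 fell (11.1%, against 6.48%). *Tgfb1* rose, from 31.7 and 16.9 CPM to 49.0 and 78.4 CPM, and *Bmpr1a*, *Bmpr2* and *Id2*, a BMP target, fell (log2 fold changes -1.64, -1.18 and -1.62). With the offsets *Id2* was still called and the other 3 were not. Of 24 smooth muscle genes 3 fell (12.5%, against 6.48% of all genes), among them *Synpo2* and *Pgm5*, which encode proteins of the actin attachment plaques. Without replicate 1 or replicate 2 of null day 15 none of the 24 was called, though the 3 were still called with the offsets. *Des* and *Myh11*, the muscle intermediate filament and myosin, were not called (log2 fold change -0.26 and -0.89), and the 24 genes summed to 12209 and 12158 CPM at day 0 and to 9610 and 10695 CPM at day 15. Among 25 neuron, glia and pacemaker genes *Uchl1* and *Prph* rose (8%, against 5.3% of all genes). *Ano1*, the chloride channel of the interstitial cells of Cajal, fell (4%, against 6.48%), and with the offsets *Ano1* was the one still called. Among 23 endothelial genes *Plvap* rose (4.35%, against 5.3% of all genes), a call lost with the offsets. *Lyve1*, a lymphatic marker, fell (4.35%, against 6.48%), from 9.94 and 23.7 CPM to 1.09 and 3.61 CPM. Of 9 skeletal muscle genes *Acta1* rose and *Cacna1s* fell, neither with the offsets, and of 11 adipocyte genes 0 were called. The adipocyte genes summed to 313 and 114 CPM at day 0 and to 250 and 449 CPM at day 15, and the mice of each day differed from one another. The part of adipocyte RNA in other values was not tested.

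**Figure D5:**
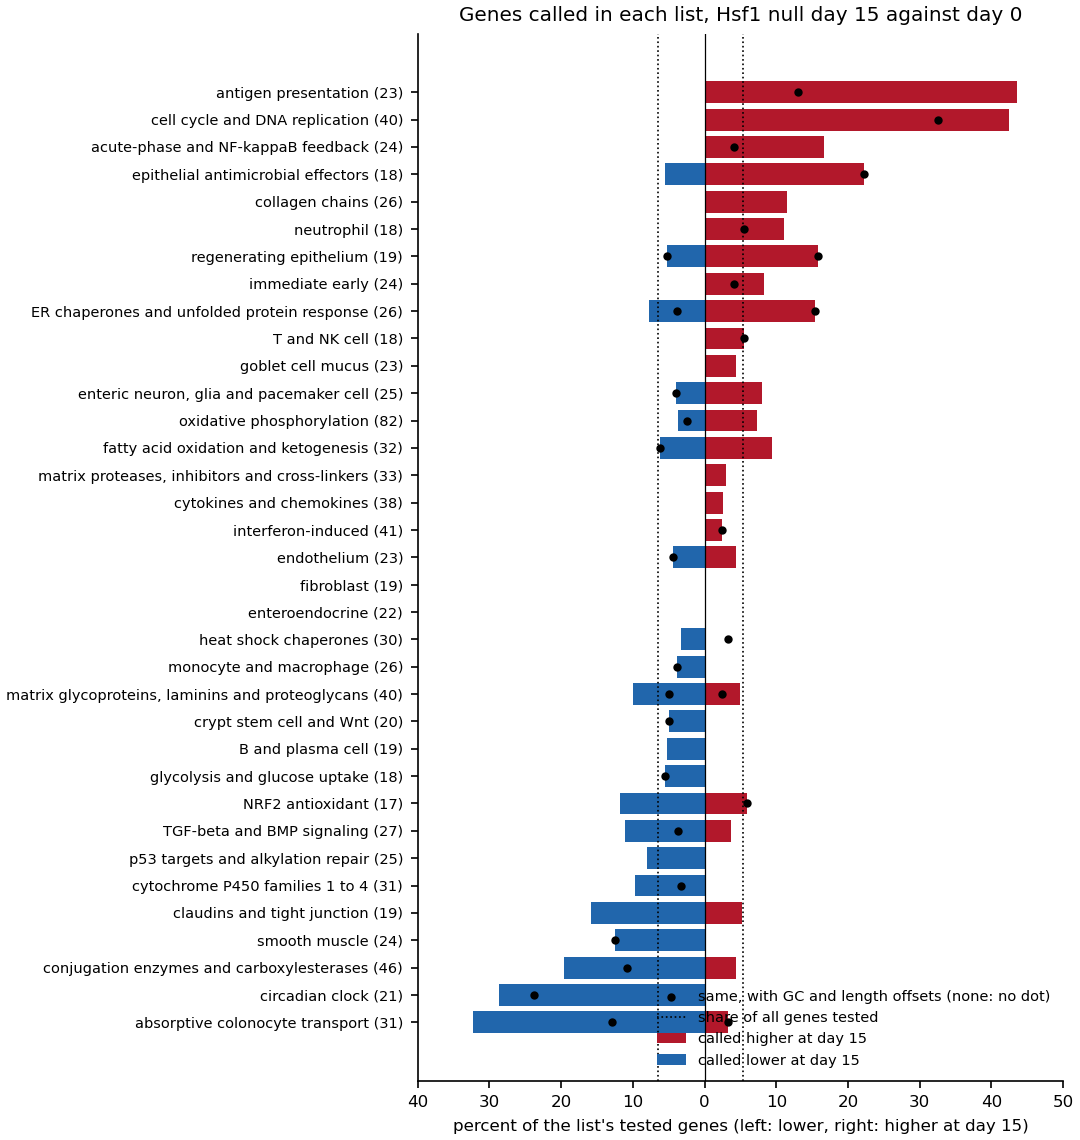
Percent of the tested genes of each list with 15 or more of them (number in parentheses) called lower (blue, to the left) or higher (red, to the right) at day 15 in *Hsf1* null mice, with dots for the same share under the GC and length offsets and dotted lines at 6.48% and 5.3%, the shares of all genes without the offsets (2.24% and 2.35% with them). Antigen presentation (10 of 23) and cell cycle (17 of 40) reach farthest to the right, and absorptive transport (10 of 31) and the circadian clock (6 of 21) farthest to the left.

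Genes of protein folding were called in both directions. The chaperones of the endoplasmic reticulum are induced together through an element in their promoters, a CCAAT box followed after 9 further bases by CCACG, when unfolded proteins build up there. Of 26 tested genes of this response 4 rose (15.4%, against 5.3% of all genes) and 2 fell (7.69%, near the 6.48% of all genes), with a median log2 fold change of 0.20. *Pdia6*, a disulfide isomerase, went from 107 and 90.6 CPM to 239 and 388 CPM (log2 fold change 1.67, SE 0.29, adjusted p = 0.0140, edgeR). *Manf*, a secreted survival factor of the reticulum, went from 111 and 87.3 CPM to 218 and 362 CPM, and *Dnajb11*, a cochaperone of BiP, from 124 and 88.0 CPM to 251 and 358 CPM. *Creld2* went from 45.0 and 52.5 CPM to 93.5 and 164 CPM (1.41, adjusted p = 0.0407, edgeR). With the offsets *Creld2* lost its call (log2 fold change 0.87) and 1 other member was called higher. All 4 were higher in replicate 2 than in replicate 1 at day 15. *Xbp1*, a transcription factor of the same response, fell from 439 and 544 CPM to 206 and 208 CPM (log2 fold change -1.25, adjusted p = 0.0201, edgeR), and so did *Dnajb9*, from 75.2 and 79.4 CPM to 29.8 and 28.9 CPM, a call lost with the offsets. Without replicate 2 of null day 15, 1 gene of this list rose and 0 fell. Of 30 heat shock chaperones, many of them targets of HSF1, *Dnajb4* fell and 0 rose, and the median was -0.06. With the offsets 1 gene of that list rose and 0 fell. *Hspa1b*, the inducible HSP70, was at 18.6 and 20.8 CPM at day 0 and at 8.69 and 15.2 CPM at day 15 and was not called, and *Hsp90ab1*, the constitutive HSP90, had a log2 fold change of 1.05 (adjusted p = 0.0561, edgeR).

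Of the 23 tested genes of the reticulum response with an entry in the promoter set, 7 (30.4%) held that element in the 250 bases before their start, against 35 of all 27025 genes (0.13%). *Manf*, called higher, had no entry there and is not counted. Of the 3 called higher with an entry, the element was present in *Pdia6* and *Creld2*, and it was in 5 of the 18 not called (27.8%) and 0 of the 2 called lower. Their promoters (chromosome 12, 17266339 to 17266588, and chromosome 15, 88819396 to 88819645, both on the plus strand of GRCm38.p6) are given with the element in capitals, which in *Creld2* lies on the opposite strand.
Pdia6: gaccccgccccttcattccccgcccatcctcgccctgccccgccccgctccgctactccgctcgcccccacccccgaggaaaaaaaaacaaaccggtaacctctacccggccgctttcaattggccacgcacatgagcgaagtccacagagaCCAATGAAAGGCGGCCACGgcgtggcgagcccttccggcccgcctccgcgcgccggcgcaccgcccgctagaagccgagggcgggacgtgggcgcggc
Creld2: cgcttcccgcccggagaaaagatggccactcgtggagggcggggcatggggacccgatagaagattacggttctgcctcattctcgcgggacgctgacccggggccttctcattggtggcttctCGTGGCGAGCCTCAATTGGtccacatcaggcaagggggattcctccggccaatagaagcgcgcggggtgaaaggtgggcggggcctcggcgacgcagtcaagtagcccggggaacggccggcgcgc

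Circadian clock genes fell or were not called. Clock genes are driven by BMAL1 and CLOCK and repressed in turn by their PER and CRY products, and their output factors bind an element called the D-box. Of 21 members 6 fell and 0 rose, and 18 had a negative log2 fold change (median -0.93). *Nr1d2*, a nuclear receptor that represses *Bmal1*, went from 118 and 169 CPM to 37.2 and 37.9 CPM (log2 fold change -1.93, SE 0.26, adjusted p = 0.0123, edgeR). *Per2* went from 149 and 181 CPM to 58.3 and 70.1 CPM, and *Per3* from 135 and 103 CPM to 55.8 and 33.7 CPM. *Wee1*, a clock-controlled kinase that delays mitosis, went from 63.1 and 73.7 CPM to 18.6 and 26.3 CPM. These 4 genes had gaps between the days, as every called gene did, and kept their calls with the offsets. *Hlf*, a D-box factor, and *Rora*, a nuclear receptor that activates *Bmal1*, fell (log2 fold changes -1.79 and -1.70) and lost their calls with the offsets. *Dbp*, another D-box factor, was at 310 and 147 CPM at day 0 and at 177 and 73.7 CPM at day 15 and was called with the offsets but not without them. Without replicate 1 of null day 0, replicate 1 of null day 15 or replicate 2 of null day 15, 4, 3 and 3 of the 21 fell. The hour at which mice were collected is not given in the labels and may differ between the days, and its part in these values was not tested. The D-box (TTATGTAA, either strand) was found in the promoter of 1 of the 17 tested clock genes with an entry in the promoter set (5.88%, against 0.977% of all genes). The E-box bound by BMAL1 and CLOCK (CACGTG) was in 5 of the 17 (29.4%, against 6.86% of all genes), in 0 of the 4 called lower and 5 of the 13 not called. *Per2* and *Wee1*, also called lower, had no entry in that set and are not among the 4, so their promoters were not searched. The D-box stands 2 times, in capitals in the promoter of *Per3* (chromosome 4, 151044666 to 151044915, minus strand).
Per3: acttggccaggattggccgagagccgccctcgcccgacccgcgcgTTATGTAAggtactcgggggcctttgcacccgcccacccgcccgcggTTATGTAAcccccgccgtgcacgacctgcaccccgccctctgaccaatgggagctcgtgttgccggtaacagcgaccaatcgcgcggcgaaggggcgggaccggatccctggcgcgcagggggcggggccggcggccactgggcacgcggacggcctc

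Some enzymes that modify foreign compounds and steroids fell. Of 46 conjugation enzymes and carboxylesterases 9 fell (19.6%, against 6.48% of all genes) and 2 rose (4.35%, against 5.3%). Their names come from large families with similar members, and *Ugt1a7c* shares exons with its neighbours, so that reads may be split between genes. *Mgst1*, a microsomal glutathione transferase, went from 137 and 203 CPM to 54.6 and 54.3 CPM (log2 fold change -1.64, SE 0.25, adjusted p = 0.0130, edgeR). *Sult1d1*, a sulfotransferase, went from 87.6 and 215 CPM to 33.3 and 18.1 CPM, and *Ugt2b34*, a glucuronosyltransferase, from 402 and 617 CPM to 123 and 128 CPM. *Ces2c* and *Ces1d*, carboxylesterases, fell too (log2 fold changes -2.49 and -2.42). With the offsets 5 genes of this list were lowered and 0 rose, and *Sult1d1* and *Ugt2b34* were not called. Without replicate 1 or replicate 2 of null day 15, 5 and 1 were lowered. Of 31 cytochrome P450 genes *Cyp2b10*, *Cyp3a13* and *Cyp4v3* fell (9.68%, near the 6.48% of all genes). *Cyp3a13* went from 202 and 186 CPM to 57.5 and 68.6 CPM, and *Cyp2b10* was at 4.19 and 1.44 CPM at day 0 and at 0 CPM in both mice at day 15. With the offsets *Cyp2b10* was the one still called. Of the P450 genes 1, 1 and 0 fell without replicate 1 of null day 0, replicate 1 of null day 15 or replicate 2 of null day 15.

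Energy metabolism showed no common direction. Of 82 oxidative phosphorylation genes 6 rose (7.32%, against 5.3% of all genes) and 3 fell (3.66%, against 6.48%), and the median log2 fold change was 0.11. *Ndufa3*, a subunit of complex I, went from 380 and 256 CPM to 838 and 735 CPM, and *Uqcrc2* of complex III went from 252 and 343 CPM to 110 and 153 CPM. With the offsets 0 rose and 2 fell. The counts were 3 and 2 without any 1 of the WT mice, 1 and 0 without replicate 1 of null day 15, and 0 and 0 without replicate 2 of null day 15. Of 32 fatty acid oxidation genes 3 rose (9.38%, against 5.3% of all genes) and 2 fell (6.25%, against 6.48%). *Ehhadh*, a peroxisomal enzyme, went from 33.6 and 35.6 CPM to 8.22 and 11.1 CPM and kept its call with the offsets. With the offsets, without either mouse of WT day 0 or with the null mice alone in the fit 0 of the list rose. Leaving out replicate 1 of null day 15 left none called, and leaving out replicate 2 of null day 15 gave 1 that rose and 3 that fell. When replicate 1 of WT day 15 was left out 1 rose. Of 18 glycolysis genes *Pgam1*, phosphoglycerate mutase, fell from 74.3 and 114 CPM to 31.6 and 27.7 CPM. The list's median was 0.44, 3 members rose without replicate 1 of null day 0, and 0 were called without either mouse of null day 15. Of 17 NRF2 target genes *Gpx2*, the glutathione peroxidase of the gut epithelium, rose from 246 and 208 CPM to 609 and 1097 CPM (log2 fold change 1.91, adjusted p = 0.0174, edgeR), and *Gclc* and *Gclm*, which make up the first enzyme of glutathione synthesis, fell (log2 fold changes -1.04 and -1.09). Both lost their calls with the offsets, without either mouse of WT day 0, without replicate 1 of WT day 15, without replicate 1 of null day 15 and with the null mice alone in the fit, and *Gpx2* lost its call without replicate 2 of null day 15.

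Genes of the DNA damage response and the immediate early genes were close to the share of calls over all genes. Of 25 p53 targets and alkylation repair genes *Trp53inp1* and *Polk*, a translesion polymerase, fell, and with the offsets neither was called. Of 24 immediate early genes *Egr1* and *Klf2* rose, against 5 without replicate 1 of null day 0 and 0 without replicate 1 of null day 15. *Egr1* went from 13.4 and 9.34 CPM to 70.0 and 30.6 CPM (log2 fold change 2.11, SE 0.44, adjusted p = 0.0211, edgeR), and *Klf2* lost its call with the offsets (adjusted p = 0.196, edgeR). *Klf4*, a factor of mature epithelium, was at 485 and 535 CPM at day 0 and at 344 and 139 CPM at day 15 and was not called (log2 fold change -1.08, adjusted p = 0.102, edgeR).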

How the data were processed

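Distal colon RNA from 8 mice was sequenced (4 WT and 4 *Hsf1* null, 2 of each at either day). Per the labels and the study's methods, polyadenylated RNA was made into Lexogen SENSE libraries and aligned with STAR to mm10. The counting program and its annotation are not given in the sources used here. The authors deposited whole-number counts per gene, and a second table that proved to be these counts divided by size factors and was treated as a score. The minimum (mean above 5 after division by size factors computed from the counts) left 14371 genes.

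Counts were scaled by TMM and fitted in edgeR 4.0.16 (R 4.3.3) in 1 model of the 4 groups with the quasi-likelihood test, Benjamini-Hochberg adjustment and a log2 fold change threshold of 1. The replicates are separate mice, 2 a group. The spread behind the p-values was estimated over all 4 groups, WT mice included, and moderated over genes, and it covers only these animals. Total counts ran from 2553348 to 12440257. Transcript GC content and length came from GENCODE M21. DESeq2 1.42.0, other filters and scalings, a replicate block, thinned counts and leaving out each mouse were tried. Named were *Hsf1*, the 15 largest called changes in each direction without overlap and with at least 10 CPM on the higher day, the 10 lowest p in each direction, genes called for the interaction, and members of the lists. Members and lists were chosen with earlier results of these data known. A few list members are not reported here.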

Additional observations from a re-analysis of the deposited data

Results flagged for a closer look

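The change of *Slc15a2*, a peptide carrier, differed between the genotypes by -11.1 on the log2 scale (null minus WT, SE 0.98, adjusted p = 0.00761, edgeR's quasi-likelihood test), and it was the 1 gene that passed the test of that difference. It no longer passed without either mouse of null day 0 or without replicate 1 of null day 15. In null mice it stood at 31.2 and 19.0 CPM at day 0 and at 0.155 and 0.401 CPM at day 15, and in WT mice at 0.686 and 0 CPM and then at 11.4 and 15.7 CPM. The cause was not tested.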

How the results depend on the processing

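The null comparison gave 1692 genes, and 0 at an adjusted p under 0.005, 660 with the GC and length offsets, 288 with the offsets and the replicate block, 0 with the offsets and without replicate 2 of null day 0, and 323 with the offsets and without replicate 1 of null day 15. It ranged from 0 to 1891 when 1 mouse was left out. The WT comparison gave 1112 genes, 12 at the stricter threshold, 1737 by DESeq2, 606 with the offsets and the block, and from 92 to 1336 when 1 mouse was left out. The difference between genotypes gave 1 gene, 0 at the stricter threshold, 120 by DESeq2, 2 without a filter, 2 with the replicate block, 2 with thinned counts, and from 0 to 50 when 1 mouse was left out. The offsets were chosen after seeing the data, and for the other moved counts the cause was not tested.

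Same-numbered mice are different animals. Their deviations had a correlation of 0.202 in null and -0.301 in WT mice, and the replicate block gave 1505 null and 868 WT genes. With the WT day 0 mice exchanged in the block, 1856 WT genes and 54 for the difference were called. *Hsf1* had a log2 fold change in null mice of -0.52 to 0.0502 when 1 mouse was left out, positive without replicate 2 of null day 15, the 1 sign that turned among the values of single genes. Of the 40 list medians, 21 had 1 sign in every alternative and 19 did not. The smallest null library held 2675976 counts, which limits genes of low level.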
